A study of Mus musculus with 250 samples.

Results

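The Ndrg family (N-myc downstream regulated genes) has 4 members in the mouse, Ndrg1, Ndrg2, Ndrg3 and Ndrg4, and all 4 have a row among the 24490 genes of the count table. The rule takes them by gene name and uses no measured value, although earlier results of these data were known when the family was chosen. Together they held 402020 of 72773548 counted reads, or 0.552%. The 250 cells are single cells titled astrocytes from the brains of adult C57BL/6 mice, about 3 months of age, that all carried SM22-Cre and a Rosa26 stop-tdTomato reporter. Cre under the SM22 (Tagln) promoter, which is used to mark smooth muscle, switches on the red fluorescent protein in cells where it acts and in their descendants. Cells were sorted into 384-well plates and read with Smart-seq2, a full-length method without molecular identifiers. The column names have prefixes for plate 2 (162 cells) and plate 3 (88 cells), which are treated as technical batches. These prefixes contain the letters VSMC, which often stand for vascular smooth muscle, while the titles say astrocyte.

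The cells form 1 group, no animal is named, and cells are not replicates, so no test was made. Every SD below is a spread between cells, not the error of a mean. Binomial intervals take cells as independent draws, and Poisson intervals take reads as independent counts. Reads without molecular identifiers need not be independent, and no interval covers differences between animals. Levels are CPM, a gene's reads divided by all reads of the cell and scaled to 1000000. Detection of a gene means at least 10 CPM in that cell. A cell had 102161 to 564958 reads, with medians of 256247 on plate 2 and 391072 on plate 3. The astrocyte label was checked with 16 marker genes. At least 50% of the cells had each of 15 of them, all but Gfap. Their summed level ran from 22797 to 70666 CPM. Of 12 oligodendrocyte markers, 2 reached that share, among them Cnp, and of 7 markers of oligodendrocyte precursors 1 did, Olig1. None of 12 neuron, 9 microglial, 7 endothelial or 7 smooth muscle markers did. Of all 16367 genes with a read, 5.92% did.

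Ndrg proteins share the alpha/beta hydrolase fold, the shape of a large class of enzymes, but are thought to lack the residues that would make them active enzymes. Ndrg1 is repressed by N-myc, is switched on by low oxygen, and is needed for peripheral myelin. Ndrg2 is widely used as an astrocyte marker, Ndrg3 has been described as a lactate-binding protein of the low-oxygen response, and Ndrg4 is best known from neurons and heart muscle.

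Positions are on GRCm38 (mm10) and follow the annotation GENCODE M21. Ndrg1 (ENSMUSG00000005125.13) lies on the minus strand at chr15:66929318-66969640, and Ndrg2 (ENSMUSG00000004558.15) on the minus strand at chr14:51905271-51914158. Ndrg3 (ENSMUSG00000027634.14) lies on the minus strand at chr2:156927345-156992056, and Ndrg4 (ENSMUSG00000036564.17) on the plus strand at chr8:95676980-95715119. The merged exons cover 6.596 kb in Ndrg1, 3.397 kb in Ndrg2, 8.388 kb in Ndrg3 and 4.893 kb in Ndrg4. Ndrg1 overlaps 2 genes on the opposite strand, Gm17035 over 1501 exon bases and Gm2895 over 137. Neither of these 2 genes has a row in the count table, and the sources used here do not give whether the counting used strand. Ndrg3 holds the small RNA gene Gm27653 in an intron, and no annotated gene overlaps Ndrg2 or Ndrg4.

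How far reads could be shared between members depends on how alike their transcripts are, so the most alike stretch of coding sequence is shown for the 3 members with more than a few reads. Each line gives 90 coding bases, 5′ to 3′ on the gene's own strand, joined across 3 exons, from the GENCODE transcripts. Capitals mark the 55 bases that are the same in all 3.

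Ndrg2: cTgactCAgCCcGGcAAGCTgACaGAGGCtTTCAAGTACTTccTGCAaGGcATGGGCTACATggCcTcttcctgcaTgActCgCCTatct
Ndrg3: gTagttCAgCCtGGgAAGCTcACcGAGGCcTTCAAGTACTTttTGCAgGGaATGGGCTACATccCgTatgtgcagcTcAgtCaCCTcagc
Ndrg4: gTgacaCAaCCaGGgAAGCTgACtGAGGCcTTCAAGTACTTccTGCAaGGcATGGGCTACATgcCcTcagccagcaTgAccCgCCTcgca

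The first stretch spans chr14:51906278-51906698 (minus strand, exons 13 to 15 of 15), the second chr2:156929942-156931438 (minus strand, exons 14 to 16 of 17), and the last chr8:95710961-95713206 (plus strand, exons 12 to 14 of 14). Ndrg2 and Ndrg4 were the same at 75 of these 90 bases (83.3%), Ndrg2 and Ndrg3 at 59 (65.6%), and Ndrg3 and Ndrg4 at 61 (67.8%). The longest run of bases shared by any transcripts of Ndrg2 and Ndrg4 was 33 bases, and it lies inside this stretch. For the other pairs, Ndrg1 included, it was 17 to 21 bases. The rule by which reads from such runs were assigned is not given. In the counts, 171 cells held 0 Ndrg4 reads, and every cell held at least 121 Ndrg2 reads. Whether any reads were shared between members was not tested.

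Ndrg2 was the family member of these cells. Its level ran from 358.8 CPM in the lowest cell over a median of 4994 to 12875 CPM in the highest, with a mean of 5183 ± 2014 CPM (SD, n = 250 cells). It was detected in 250 of 250 cells (100%, exact binomial 95% interval 98.5 to 100%), and 249 cells were above 1000 CPM. Ndrg3 was next by CPM, at 197 ± 362 CPM (SD, n = 250 cells), and it was detected in 99 cells (39.6%, 33.5 to 46.0%). Ndrg4 averaged 122 ± 337 CPM and was detected in 63 cells (25.2%, 19.9 to 31.1%). Ndrg1 averaged 1.31 ± 12.3 CPM and was detected in 3 cells (1.2%, 0.248 to 3.47%). Thus 1 of the 4 members was present in at least 50% of all cells, against 5.92% of the 16367 genes with a read.

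**Figure D1:**
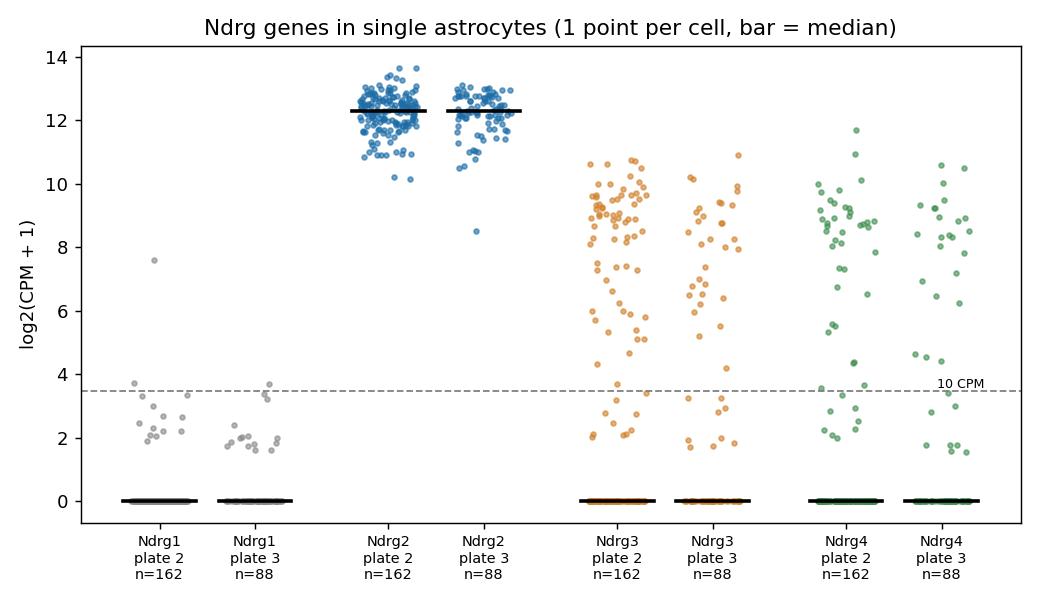
Level of each Ndrg gene in every cell as log2(CPM + 1), by plate (162 cells on plate 2 and 88 on plate 3), with 1 point per cell, a bar at the median and a dashed line at 10 CPM. Ndrg2 is above the line in every cell, Ndrg3 and Ndrg4 have their median at 0 and a cloud of high cells, and Ndrg1 is above the line in 3 cells.

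Genes of different length can be compared only per length, so CPM was divided by the length of the merged exons. On that scale Ndrg2 stood at 1526 ± 593 CPM per kb, Ndrg4 at 24.9 ± 68.8, Ndrg3 at 23.5 ± 43.2 and Ndrg1 at 0.199 ± 1.87 (SD, n = 250 cells each). The order of Ndrg4 and Ndrg3 depended on the length used, and their means differed by far less than the spread between cells. By the longest transcript, Ndrg3 took 2.14% of the Ndrg total and Ndrg4 1.65%, which is the order of the CPM values. The means of Ndrg3 and Ndrg4 were far above that of Ndrg1, which was detected in 1.2% of cells against 39.6% and 25.2%. Even so, each difference was smaller than the SD of Ndrg3 or Ndrg4 between cells. Ndrg2 stood apart from all 3 by more than its own SD.

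Within single cells, Ndrg2 was the highest member per kb in 250 of 250. Its share of the cell's Ndrg total, per kb, averaged 96.6 ± 5.72% (SD, n = 250 cells), with a lowest value of 51.8%, a median of 99.5% and a highest of 100%. The share was above 90% in 227 cells and above 99% in 135. Without the division by length, the mean share of Ndrg2 was 94.0%. Ndrg3 took 1.70 ± 3.49% of the total and more than 10% in 8 cells, with a highest value of 29.1%. Ndrg4 took 1.69 ± 4.71% and more than 10% in 13 cells, with a highest value of 48.2%. Ndrg1 reached 1.47% in its highest cell.

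**Figure D2:**
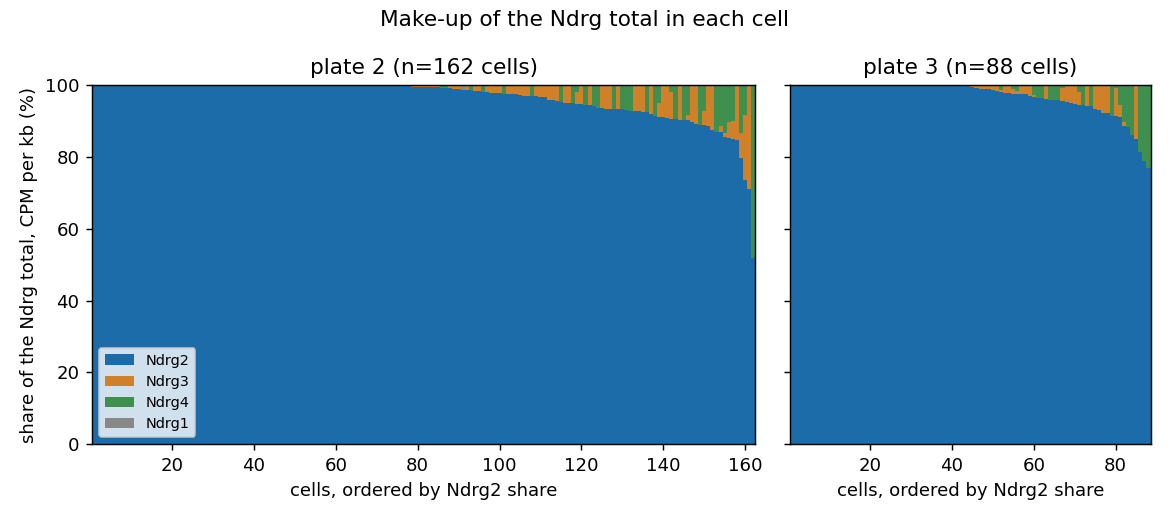
Make-up of the Ndrg total in each cell, in percent of the summed CPM per kb of the 4 genes, with cells ordered by Ndrg2 share on plate 2 (162 cells) and plate 3 (88 cells). Ndrg2 fills nearly all of most columns, and the lowest share is 51.8% on plate 2, in a cell with 48.2% Ndrg4.

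The cells with the lowest Ndrg2 share got there by different routes. The cell at 51.8%, on plate 2, had 2470 CPM of Ndrg2, 3304 CPM of Ndrg4 and no Ndrg3 read. A plate 2 cell at 70.9% had 1182 CPM of Ndrg2 and 1196 CPM of Ndrg3. Another plate 2 cell, at 73.5%, held both minor members, with 1435 CPM of Ndrg3 and 396 CPM of Ndrg4 beside 2374 CPM of Ndrg2. On plate 3 the lowest shares were 76.9% and 78.9%, in cells with 1422 and 1043 CPM of Ndrg4 and no Ndrg3 read. In none of these 5 cells did a minor member pass Ndrg2 per kb, although in the first 2 it did so in CPM.

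Ndrg2 encodes a cytoplasmic protein that is used to label astrocyte cell bodies and processes in the adult brain. It had a coefficient of variation (CV, the SD over the mean) of 0.389 over all cells, and its quartiles were 3836 and 6507 CPM. The cell with the lowest level, on plate 3, had 121 Ndrg2 reads of 337268, or 358.8 CPM. That cell had 15 of 16 astrocyte markers detected, with 42880 CPM of them in sum against a median of 47110 over all cells. Single markers could be lower, such as Gja1, the main astrocyte gap junction gene, with 3680 CPM against a median of 6877. The next lowest cells had 1129 and 1182 CPM on plate 2 and 1450 CPM on plate 3. At the other end, 3 cells of plate 2 had 12875, 12695 and 10926 CPM.

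Ndrg2 differed between the plates by less than the spread between cells. Plate 2 ran from 1129 over a median of 4975 to 12875 CPM (mean 5207 ± 2072, SD, n = 162 cells) and plate 3 from 358.8 over 5023 to 8797 CPM (5138 ± 1913, n = 88 cells). The log2 ratio of plate 3 over plate 2 was −0.02. Over cells, the Spearman rho of Ndrg2 with the number of reads was 0.142 on plate 2 and 0.111 on plate 3, and with the number of genes detected −0.0648 and 0.139. These and all correlations below are over cells that share a plate and differ in depth, and are given as descriptions.

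Abundant genes vary less than rare ones, so spread was read against the trend of all genes with at least 20 CPM on a plate. The squared CV of Ndrg2 was 0.808 times the trend on plate 2, rank 5303 of 7252 from the most variable gene down. On plate 3 it was 0.685 times the trend, rank 5906 of 7096. Ndrg2 thus lay below the trend on both plates. Among the 20 genes with the highest mean CPM, of which it is one, it was nearer the middle. On plate 2 its CV was 0.398 beside a median of 0.401, with 9 genes lower, and on plate 3 it was 0.372 beside 0.399, with 6 genes lower. Over all cells the median CV was 0.403 and 6 genes had a lower CV than Ndrg2. Those of all cells include Ntsr2 of the astrocyte markers, and Sparcl1 and Apoe, which were chosen after their values were seen.

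**Figure D3:**
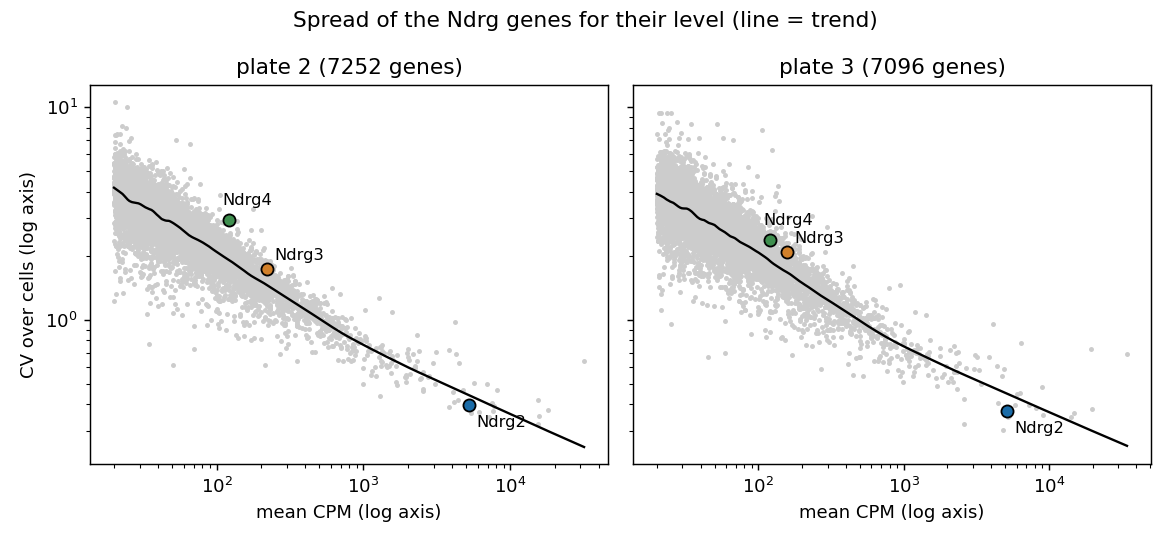
Coefficient of variation over cells against mean CPM, both on log axes, for 7252 genes on plate 2 and 7096 genes on plate 3 (grey points, 1 per gene), with the trend as a line and Ndrg2, Ndrg3 and Ndrg4 in colour. Ndrg2 lies below the line on both plates, and Ndrg3 and Ndrg4 lie above it.

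Ndrg3 was either high or unread in most cells. It had 12697 reads (exact Poisson 95% interval 12477 to 12920), with none in 132 cells and below 10 CPM in 19. The lowest and the median cell were at 0, the upper quartile was 282 CPM and the highest cell reached 1911 CPM. Among the 99 cells in which it was detected, the median was 443 CPM and the quartiles were 124 and 720 CPM. Only 12 cells passed 1000 CPM, and 24 cells held 50% of all its reads. On plate 2 it was detected in 67 of 162 cells (41.4%) with a mean of 219 CPM, and on plate 3 in 32 of 88 (36.4%) with a mean of 157 CPM.

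Ndrg4 showed the same form with fewer cells. Its 8059 reads (7884 to 8237) left 171 cells at 0 and 16 below 10 CPM. The median was 0, the upper quartile 10.6 CPM and the highest cell 3304 CPM. In the 63 detected cells the quartiles were 151 and 597 CPM around a median of 396, and 7 cells passed 1000 CPM. A group of 12 cells held 50% of its reads. Plate 2 had 39 such cells (24.1%) and a mean over all cells of 122 CPM, and plate 3 had 24 (27.3%) and 121 CPM.

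Both genes varied more than the trend. The squared CV of Ndrg3 was 1.41 times the trend on plate 2 (rank 1007 of 7252) and 1.54 times on plate 3 (rank 908 of 7096). That of Ndrg4 was 2.41 times on plate 2 (rank 61) and 1.59 times on plate 3 (rank 788). The plate 2 value of Ndrg4 rests in large part on the cell at 3304 CPM, which held 13.5% of its plate 2 reads. Without that cell, an alternative chosen after seeing the data, it was 1.51 times the trend (rank 675 of 7256). By the same alternative, the plate 3 value of Ndrg4 was 1.33 (rank 1540 of 7084). That of Ndrg3 was 1.35 on plate 2 and 1.21 on plate 3 (rank 2092 of 7088).

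Depth differs between the plates, so each cell was also thinned to 50000 reads. No cell was too shallow for this. With 1 read or more counted as present, Ndrg3 was then found in 103 cells (41.2%), 42.6% of plate 2 and 38.6% of plate 3. Ndrg4 was found in 65 cells (26.0%), 24.7% of plate 2 and 28.4% of plate 3, and Ndrg1 in 6 cells (2.4%). Without thinning, cells with at least 1 read made up 47.2% for Ndrg3, 31.6% for Ndrg4 and 11.6% for Ndrg1. The order of the members was the same in both readings, and Ndrg2 was in every cell.

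Among genes with at least 20 CPM on either plate, 15.3% were at least 1.5 times higher on plate 3 and 17.7% at least 1.5 times higher on plate 2. None of the 3 members in that range was past either limit. Without the highest cell of each plate, the log2 ratio of Ndrg3 was −0.62, which is past the limit of 1.5 times higher on plate 2. The log2 ratio of plate 3 over plate 2 was −0.49 for Ndrg3 and −0.01 for Ndrg4. The Ndrg3 difference was smaller than its SD between cells, 380 CPM on plate 2 and 326 CPM on plate 3.

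Ndrg1, which in the brain is best known from oligodendrocytes, was near the limit of detection. It had 79 reads (62.5 to 98.5), 59 on plate 2 and 20 on plate 3, in 29 cells. A single plate 2 cell held 43 of them, or 54.4%, and stood at 193 CPM. Without that cell the mean fell from 1.31 to 0.542 CPM. The other 2 cells at 10 CPM or more had 12.1 CPM from 2 reads and 11.9 CPM from 3 reads.

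The cell at 193 CPM had 14 of 16 astrocyte markers detected. It also had 3 of 12 oligodendrocyte markers, with a summed level of 3529 CPM, against a median of 825 and a highest value of 4409 CPM over all cells. It had 2 of 7 markers of oligodendrocyte precursors and none of 12 neuron markers. The other 2 cells had 1 oligodendrocyte marker each, at 1651 and 617 CPM in sum. Over cells, the rho of Ndrg1 with the summed oligodendrocyte level was 0.0112 on plate 2 and 0.000968 on plate 3. Whether RNA of oligodendrocytes had a part in these Ndrg1 reads was not tested.

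No pair of members had a rho beyond 0.1 in either direction on either plate. The rho of Ndrg2 with Ndrg3 was −0.0187 on plate 2 and 0.00784 on plate 3, and that of Ndrg2 with Ndrg4 was −0.0884 and 0.0244. Ndrg3 and Ndrg4 had 0.0209 and −0.0746. Pairs with Ndrg1 lay between −0.0945 and 0.0887. Ndrg3 and Ndrg4 were detected together in 25 cells, where the product of their shares gives 24.9. Ndrg3 alone of the 2 was detected in 74 cells, Ndrg4 alone in 38 and neither in 113.

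Genes that vary like Ndrg2 were ranked by rho over the 162 cells of plate 2 and then read in the 88 cells of plate 3, which had no part in the ranking. The ranking covered the 865 other genes detected in at least 50% of the cells of both plates. The 20 highest had rho of 0.180 to 0.262 on plate 2. On plate 3 the same 20 ran from −0.175 to 0.260 with a median of 0.109, beside 0.0260 for all 865 genes. With Pearson correlation of log2(CPM + 1) this median was 0.0228 and with size factors 0.0289, each for the 20 genes highest under that setting, so that it was then close to the value for all genes. Of the 20, 16 were above 0 on plate 3, against 59.8% of all genes, and 4 were at 0.2 or more, against 5.9%. The plate 3 ranking shared 2 of its own 20 highest genes with that of plate 2.

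**Figure D4:**
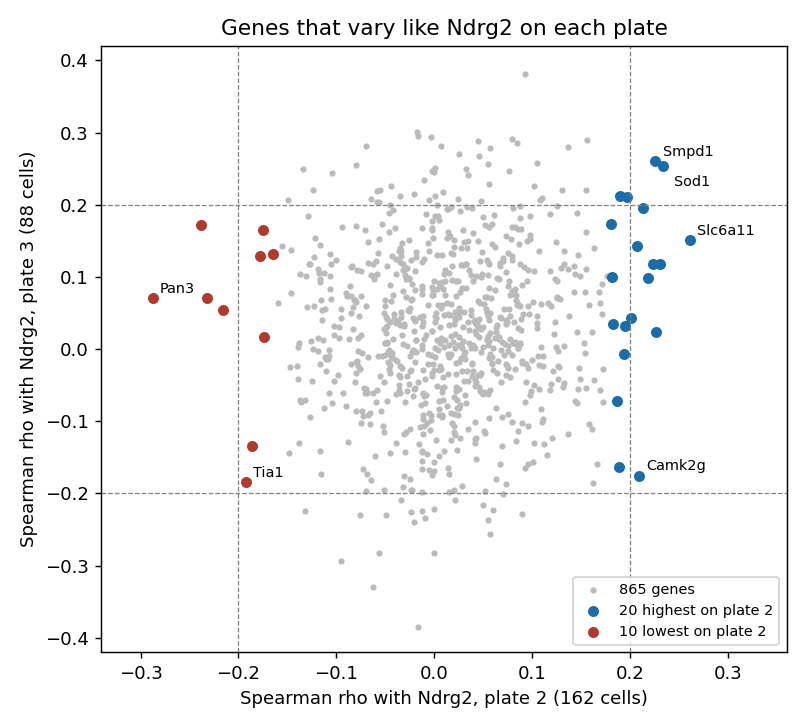
Spearman rho of 865 genes with Ndrg2 on plate 2 (162 cells) and on plate 3 (88 cells), with 1 point per gene, the 20 highest and 10 lowest of plate 2 in colour and dashed lines at 0.2 and −0.2. Sod1 and Smpd1 are the 2 genes past 0.2 on both plates, and no gene is past −0.2 on both.

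A gene was said to vary like a member at a rho of 0.2 or more on both plates. For Ndrg2, 2 of 865 genes did so (0.231%). Sod1, the cytoplasmic superoxide dismutase, had 0.234 on plate 2 and 0.254 on plate 3. Smpd1, the lysosomal acid sphingomyelinase, had 0.226 and 0.260. The highest gene of plate 2 was Slc6a11, the astrocyte GABA transporter GAT-3, with 0.262, and it had 0.151 on plate 3.

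Others of the 20 carried over in part. Prdx6, a peroxiredoxin, had 0.213 and 0.195, and Gstm1, a glutathione transferase, had 0.219 and 0.0984. Gapdh of glycolysis had 0.190 and 0.213, and Phkg1, a subunit of phosphorylase kinase, had 0.197 and 0.211. Its neighbour in glycogen breakdown did not carry over, since Pygm, a glycogen phosphorylase, had 0.194 and −0.00633. Ckb, the brain creatine kinase, had 0.231 and 0.118. Camk2g, a calcium-dependent kinase, changed sign, from 0.210 to −0.175, as did Arpc4 of the actin-branching complex, from 0.189 to −0.163.

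The low end of the ranking mostly did not carry over. The 10 lowest genes had rho of −0.288 to −0.165 on plate 2. On plate 3 their median was 0.0705, beside 0.0260 for all 865 genes. Of the 10, 8 were above 0 on plate 3, against 59.8% of all genes. Pan3, of a poly(A)-shortening complex, went from −0.288 to 0.0705, and Gabbr1, a subunit of the GABA-B receptor, from −0.238 to 0.172. Tia1, an RNA-binding protein, kept its sign with −0.193 and −0.184, as did Clasp2, a microtubule-binding protein, with −0.186 and −0.134. No gene was at −0.2 or less on both plates (0.0%). Over the 865 genes, the rho values with Ndrg2 on the 2 plates had a rank correlation of 0.0557 with each other.

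The minor members were read by the same rule, among 866 genes. For Ndrg4, 1 gene was at 0.2 or more on both plates (0.115%), and 1 was at −0.2 or less (0.115%). The first was Mdh1, the cytoplasmic malate dehydrogenase, with 0.281 and 0.278. The second was Agt, the angiotensin precursor made by astrocytes, with −0.265 and −0.228. Gpi1, a glycolytic enzyme and the highest gene on plate 2, had 0.290 and 0.107, while Idh3g of the citric acid cycle went from 0.271 to −0.102.

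For Ndrg3 no gene passed in either direction (0.0% each way). H3f3b, a histone gene, had 0.271 on plate 2 and 0.0410 on plate 3, and Tkt, the transketolase of the pentose phosphate pathway, had 0.249 and 0.0530. At the low end, Tmbim6, a membrane protein of the endoplasmic reticulum, had −0.219 and −0.162. For Ndrg1 no gene passed either (0.0% each way), and its highest gene, the receptor phosphatase Ptpra, had 0.304 and 0.0807. Ranks of Ndrg1 rest on the few cells with a read.

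The kinases that modify Ndrg proteins were read next. Sgk1, which phosphorylates Ndrg1 and Ndrg2, averaged 0.198 CPM and was found in 1 cell. Its relative Sgk3 was detected in 30 cells. Gsk3b, which adds further phosphates to Ndrg1, was the only 1 of the 10 kinases and phosphatases listed that passed the 50% share (5.92% of all genes with a read did), with 225 ± 296 CPM and 170 cells. Akt1 was detected in 48 cells and Akt2 in 60. The rho of Gsk3b with Ndrg2 was −0.0115 on plate 2 and −0.0284 on plate 3.

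The Myc network gave the family its name. Mycn had 0 reads in all cells, Myc averaged 2.95 CPM over all cells and was found in 7, and their shared partner Max was found in 51 cells. None of the 10 genes of this network passed the 50% share, a count near the 5.92% of all genes.

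Of 9 oxygen-sensing genes, the hypoxia-inducible factors Hif1a and Epas1 passed the 50% share, against 5.92% of all genes with a read. Hif1a had 258 ± 356 CPM in 150 cells and Epas1 191 ± 248 CPM in 146 cells. Egln1, the prolyl hydroxylase that has been reported to bind Ndrg3, was detected in 19 cells. Of 15 hypoxia target genes, 4 passed, beside the same 5.92%, namely Vegfa, Slc2a1, P4ha1 and Aldoa. For lactate, which Ndrg3 is reported to bind, 1 of 6 genes passed, again beside 5.92%. It was the lactate dehydrogenase gene Ldhb, with 827 ± 531 CPM in 246 cells and a rho with Ndrg3 of 0.0899 and 0.120. The rho of Ldhb with Ndrg4 was higher on both plates, at 0.151 and 0.179.

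Ndrg2 is known as a gene that glucocorticoids induce in astrocytes. The receptor Nr3c1 was detected in 129 cells with 206 ± 299 CPM. Of the 12 genes of this list, 5 passed the 50% share, against 5.92% of all genes with a read. Beside Nr3c1 these were Nr3c2, Hsd11b1, Tsc22d3 and Klf9. The rho of Nr3c1 with Ndrg2 was 0.105 on plate 2 and 0.285 on plate 3. That of Tsc22d3, a standard glucocorticoid target, was 0.00967 and 0.0479.

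Ndrg2 has been reported to bind the sodium pump subunit Atp1b1, which averaged 14.9 CPM and was found in 25 cells. Atp1b2, the beta subunit typical of astrocytes, was in every cell with 7714 ± 3077 CPM. It had a rho with Ndrg2 of 0.176 on plate 2 and 0.101 on plate 3. Of 11 reported binding partners, Slc1a3, the glutamate transporter GLAST, and Rabac1 passed the 50% share, against 5.92% of all genes with a read. Slc1a3 had a rho with Ndrg2 of −0.00149 and 0.0744, and Rabac1, which binds Rab proteins, had −0.0700 and 0.281.

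Other genes with the alpha/beta hydrolase fold were less often present than Ndrg2. Of 23 such genes, 4 passed the 50% share, against 5.92% of all genes with a read. Abhd3, a phospholipase, was the most frequent with 234 cells, followed by Abhd12 with 170 and by Abhd4 and Ppt1 with 135 each. Abhd3 had a rho with Ndrg2 of 0.168 on plate 2 and 0.0796 on plate 3. All 8 genes of glutamate and GABA uptake passed, and Slc6a11 came closest to varying like Ndrg2, as described above.

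The 22 lists hold 205 genes, and 42 of them were among the genes detected in at least 50% of both plates' cells. None of the 42 varied like or unlike any Ndrg gene on both plates, which at shares of 0.0% to 0.231% of all genes says nothing particular about the lists. The summed level of the 12 neuron markers, with a median of 55.5 and a highest value of 3545 CPM, had a rho with Ndrg2 of −0.154 on plate 2 and −0.215 on plate 3. With Ndrg4, the member best known from neurons, it had 0.131 and −0.0806. The summed astrocyte markers had 0.0918 and 0.0677 with Ndrg2. Sums of other lists reached values of like size. Some did not carry over, such as the reactive astrocyte list, with −0.168 and 0.221 for Ndrg2. Others kept their sign, such as the pericyte list with Ndrg2 (−0.133 and −0.0977) and the lactate list with Ndrg4 (0.230 and 0.150). No gene of the reactive astrocyte list (10 genes) or of the acute handling list (11 genes, such as Fos and Jun) passed the 50% share, which is near the 5.92% of all genes. The part of neuron RNA in the Ndrg2 and Ndrg4 values was not tested.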

How the data were processed

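The authors' deposited table holds whole-number read counts per gene and cell, not normalized, per the file's own values. STAR 2.4.2a and mm10 were used, per the submitters' processing notes. The sources used here do not give the counting tool, annotation or cell filter. Each of the 250 columns was assigned through its name, and every cell was kept. Wells were taken as single cells and no doublet caller was run.

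CPM, exact binomial and Poisson intervals (95%), Spearman rho within each plate, and a lowess trend of squared CV on mean (span 0.1) were computed with Python 3.11.15, scipy 1.17.1 and statsmodels 0.14.6. The code was tested on simulated data. Exon lengths are from GENCODE M21. The genes named are the members, the genes of 22 lists (cell type markers and Ndrg-related functions), overlapping genes, and, by rho on plate 2 among genes detected in at least 50% of the cells of both plates, the 20 highest and 10 lowest for Ndrg2 and the 5 highest and 3 lowest for each other member. Some listed genes are not reported here. The members and lists were chosen with earlier results of these data known. Alternatives covered the detection limit, scaling, thinning, gene length, gene filter, plates, the highest cell and the kind of correlation.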

Additional observations from a re-analysis of the deposited data

How the results depend on the processing

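Of 142 recomputed values, 127 stayed within the limits set for a change, 14 moved and 1 changed sign. Counting any read as detection gave 11.6% of cells for Ndrg1, 47.2% for Ndrg3 and 31.6% for Ndrg4, and Ndrg2 stayed at 100%. The Ndrg1 log2 ratio between the plates, −1.21, became 0.37 without the highest cell of each plate. Its CV, 9.39, became 2.82 on plate 3 alone and 3.36 without the highest cell. The squared CV of Ndrg4 on plate 2, against the trend, went from 2.41 to 1.51 without the highest cell, an alternative chosen after seeing the data. For Ndrg2, 4 of the 20 genes highest on plate 2 reached 0.2 on plate 3. That number was 1 with Pearson correlation of log2(CPM + 1), and 2 with thinned cells, with depth and genes detected held constant, with genes in at least 80% of cells, or with the plates swapped. The number of genes at 0.2 or more on both plates, 2, became 1 with Pearson correlation, 0 with genes in at least 80% of cells, and 4 with no filter beyond 5 cells with a read. The median rho of the 20 genes on plate 3, 0.109, ranged from 0.0228 with Pearson correlation to 0.0997 with genes in at least 80% of cells. These shifts are under the limit of 0.1 set for rho and so count among the 127. That limit is nearly as large as the median, and could not mark a fall to the 0.0260 of all 865 genes. It also exceeds the rho of every pair of members, so staying within it says little about these values. The Ndrg3 log2 ratio between the plates went from −0.49 to −0.62 without the highest cell of each plate. Between 3 and 17 of the 20 genes were shared with the 20 of another setting. The cause was not tested. No paired analysis was possible because the cells form 1 group. Depth limits Ndrg1 most, with 79 reads in all.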

Other observations

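A ranking by the lower rho of the 2 plates was added after the values were seen. Among the genes most like Ndrg4, after Mdh1 came Idh3b of the citric acid cycle (0.165 on plate 2 and 0.178 on plate 3), Prex1, a Rac exchange factor (0.162 and 0.171), and Atp5b of the ATP synthase (0.223 and 0.152). Cox8a, a cytochrome oxidase subunit, had 0.151 and 0.276, the lactate dehydrogenase gene Ldhb 0.151 and 0.179, and the mitochondrial malate dehydrogenase Mdh2 0.149 and 0.148. The genes most unlike Ndrg4 after Agt were Nnat (−0.212 and −0.193) and Acsl6, which activates fatty acids (−0.188 and −0.218). Both plates took part in this ranking, so plate 3 is no check on it. Values like those after Mdh1 also headed the ranking for Ndrg1, which had 79 reads (Adrbk2, 0.165 and 0.185). The same held for Ndrg3 (2610507B11Rik, 0.171 and 0.172). All these values are descriptions of 162 and 88 cells, and no list was tested.

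The same ranking for Ndrg2 added genes outside its 20 highest on plate 2. Tecr, an enzyme of fatty acid elongation, had 0.157 and 0.290, and Cs, the citrate synthase, had 0.155 and 0.221. On the unlike side, the first added were Slc1a4, a neutral amino acid transporter (−0.148 and −0.144), Ppp3ca, a calcineurin subunit (−0.132 and −0.224), and Luzp2 (−0.139 and −0.130).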
